A study of Mus musculus with 16 samples.

Results

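The translation initiation and elongation factors are described here in CD8 T cells of mice, on 16 arrays. They were taken as every non-control probe whose gene name in the array files begins with Eif followed by a number from 1 to 6, or with Eef followed by 1 or 2, leaving out the eIF2 kinases (names beginning with Eif2ak). The rule found 127 probes for 55 genes, of 41174 probes and 27666 gene symbols on the array. Of these, 119 probes and 53 genes could be tested, because a probe of theirs was well above background on 3 or more arrays in some group of 4. Eef1a2 and Eif2s3y were the 2 genes left untested. They were not well above background on any of the 16 arrays.

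The mice were C57BL/6N females, 7 weeks of age. Flow cytometry separated their CD8+ Thy1.2+ cells into a fraction high in CD44, called memory phenotype, and a fraction low in CD44, called naive. Each fraction was cultured for 4 h with PMA at 10 ng/mL plus ionomycin at 500 ng/mL (stimulated) or in medium alone (resting). PMA activates protein kinase C and ionomycin lets calcium into the cell, so the pair bypasses the T cell receptor. The groups are therefore memory stimulated, memory resting, naive stimulated and naive resting cells, with 4 arrays each from a sort and culture that was carried out 4 times. All 4 groups went through the sort and the culture, so resting cells are cultured cells and not cells fresh from the mouse. The sources used here do not give the number of mice pooled for a sort.

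Translation initiation brings the small ribosomal subunit, the initiator tRNA and the mRNA together. eIF2 carries the tRNA, eIF2B recharges eIF2 with GTP, eIF3 is the large scaffold on the small subunit, and the eIF4F complex binds the mRNA cap. eIF1 and eIF1A help to select the start codon, and eIF5 and eIF5B lead to joining of the large subunit. The eEF1 factors then deliver aminoacyl-tRNA and eEF2 moves the ribosome along the mRNA. Resting T cells make little protein, and protein synthesis rises when they are activated.

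Not every member is such a factor. The names Eif2c1 to Eif2c4 in the files are older names of Argonaute 1 to 4 (Ago1 to Ago4), which carry small RNAs, so 51 genes remain without them. Eef1e1 encodes a part of the multisynthetase complex, which holds aminoacyl-tRNA synthetases together. Eef2k is the kinase that inhibits eEF2, and Eif4ebp1, Eif4ebp2 and Eif4ebp3 are inhibitors of the cap-binding protein eIF4E. The eIF3 subunits stood under older names (Eif3s1 to Eif3s12 and Eif3s6ip) and are given here under current symbols. Another 11 factors and factor modifiers of the same roles, among them Eif6, Eif4h, Eif4a3 and Eif3m, carried other names in the files and are not members.

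Values are log2 intensities from which the 75th percentile of the array was subtracted, so 1 unit is a 2-fold difference and values of different probes are not on a common scale. A gene is represented by its brightest tested probe, and a member by the brightest of its tested member probes. For Ago2 a tested probe outside the name rule was brighter, and it stands for Ago2 in the shares of all genes. Each comparison was fitted with limma over all 27348 tested probes, and a gene was called where the Benjamini-Hochberg adjusted p was under 0.05. Changes are log2 differences with the standard error of the fit after ±. Arrays had 75th percentiles of 485 to 670 intensity units, 59.3% to 66.5% of spots stood well above background, and replicates of a group correlated at 0.976 to 0.995. All 6 T cell marker genes tested stood well above background on all 16 arrays. Of 18 tested markers of other cell types, 4 were higher and 6 lower in stimulated than in resting naive cells, and 1 was higher and 9 lower in stimulated than in resting memory cells. Between memory and naive cells, 3 were higher and 2 lower in memory cells after stimulation, and 6 were higher and none lower at rest. Their summed linear level was 41.2 to 71.2 in memory stimulated, 31.3 to 36.0 in memory resting, 16.2 to 22.3 in naive stimulated and 14.6 to 20.4 in naive resting cells, in units of the array's 75th percentile. Nkg7, a granule gene that memory CD8 T cells also express, made up most of it in stimulated cells. Without Nkg7 the sums were 5.10 to 8.69, 16.3 to 24.5, 2.37 to 5.53 and 10.3 to 15.6 in the same order of groups. Of the 18 markers, 14 stood well above background on all memory stimulated arrays, 16 on all memory resting, 15 on all naive stimulated and 15 on all naive resting arrays. Their part in the results was not tested. The arrays measured RNA of whole samples, so fewer cells of a type and less RNA per cell cannot be told apart. Each group was hybridised on a slide of its own, so slide and group cannot be told apart either.

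Stimulation raised most of the factors in both cell types. In memory cells 40 of 53 genes rose, 3 fell and 10 were not called, where 31.3% of all 18401 genes tested were higher and 39.1% lower. In naive cells 35 rose, 6 fell and 12 were not called, where 38.2% of all genes were higher and 30.9% lower. Without the Argonautes, 39 rose and 2 fell among 49 tested genes in memory cells, and 34 rose and 5 fell in naive cells. The median change of the members was 1.13 in memory cells and 0.88 in naive cells, beside -0.16 and 0.15 for all genes tested. The 4 stimulated arrays all lay above the 4 resting arrays for 38 members in memory cells (28.9% of all genes) and for 37 in naive cells (32.9% of all genes). They all lay below the resting arrays for 2 members in memory cells (35.8% of all genes) and for 4 in naive cells (27.6% of all genes). At least a 2-fold rise that passed the test was found for 30 genes in memory cells and 26 in naive cells, and at least a 4-fold rise for 12 and 10. The share of all genes at these fold sizes was not counted, so these counts have no background to be set against.

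The size of these changes depended on the scaling between arrays. With quantile scaling the members' median was 0.56 in memory cells and 0.53 in naive cells, beside -0.12 and 0.01 for all genes, and 32 members rose and 9 fell in each. In the authors' deposited table the median was 0.51 in each, beside -0.10 and -0.01, and 32 rose and 10 fell. Of the 53 genes, 35 were called higher in both responses and 2 lower in both (Eif4e3 and Eif4ebp3). None was called in opposite directions. The responses have no arrays in common, but both came from the same fit, with a shared error for each probe. How many of all genes were called alike in both was not counted, so these counts have no background to be set against.

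**Figure D1:**
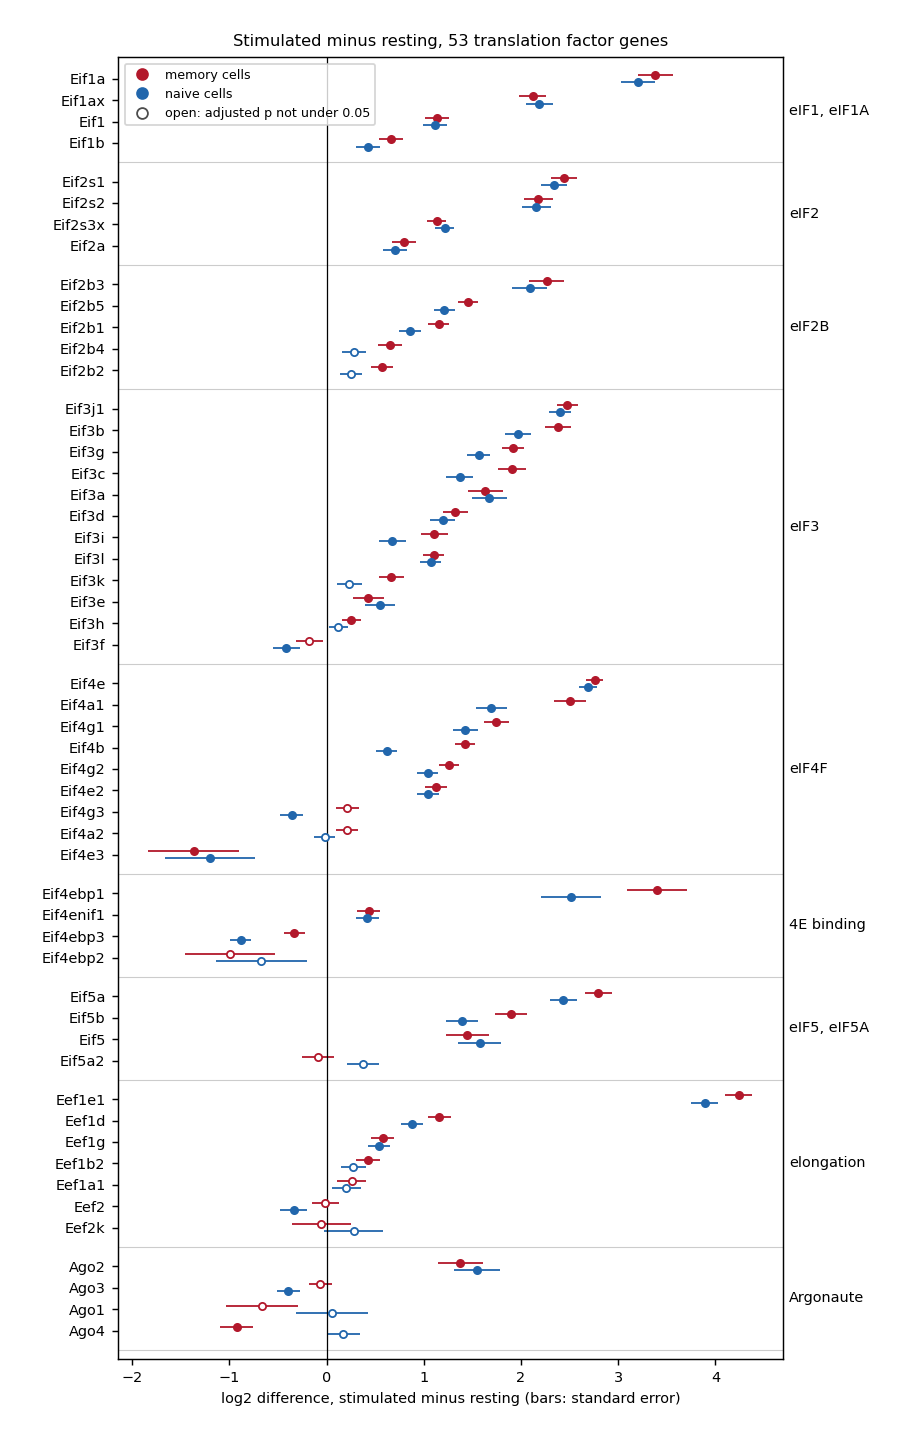
Change on stimulation of the 53 tested genes, by role, as the log2 difference of stimulated minus resting cells (horizontal axis), in memory cells (red, upper point of a pair) and naive cells (blue, lower point). Bars are standard errors and open points were not called. Most points lie to the right of 0, Eef1e1 farthest in both cell types. Sign changes under quantile scaling or in the authors' table are listed only for genes called here or there. They are those of Eif2b2, Eif3e and Eif3h in both cell types, and of Eif4a2, Eif4g3 and Eef1b2 in memory cells.

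Start codon selection factors rose together. All 4 tested genes, Eif1 and its relative Eif1b, and the eIF1A genes Eif1a and Eif1ax (which the files name Eif1ay), were higher in both stimulated groups. Eif1a rose most of the initiation factors proper. It stood at 4.88, 5.13, 4.99 and 5.18 on the memory stimulated arrays, against 1.47, 1.61, 1.55 and 2.01 on the memory resting arrays, a rise of 3.38 ± 0.18 (10.4-fold, adjusted p = 1.8e-10). In naive cells it had 4.91, 5.08, 5.14 and 5.24 after stimulation and 1.41, 1.88, 1.86 and 2.39 at rest, a rise of 3.21 ± 0.18 (adjusted p = 3.3e-10). The stimulated and resting arrays were far apart in both cell types, with no overlap.

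Its X-linked relative Eif1ax rose by 2.12 ± 0.14 in memory cells and 2.19 ± 0.14 in naive cells. Values of Eif1ax were 6.07, 6.34, 6.39 and 6.37 in memory stimulated and 4.03, 4.1, 4.0 and 4.56 in memory resting cells, and 6.2, 6.4, 6.37 and 6.53 in naive stimulated and 4.09, 4.17, 4.05 and 4.45 in naive resting cells. Again no stimulated array came near a resting one. Eif1 rose less, by 1.13 ± 0.13 and 1.12 ± 0.13, and Eif1b least, by 0.66 ± 0.12 and 0.43 ± 0.12, in memory and naive cells. Eif1 had 7.44, 7.7, 7.8 and 7.76 in memory stimulated and 6.64, 6.41, 6.51 and 6.62 in memory resting cells, and 7.56, 7.83, 7.78 and 7.72 in naive stimulated and 6.81, 6.41, 6.41 and 6.79 in naive resting cells. Eif1b had 3.88, 3.65, 3.88 and 3.49 in memory stimulated and 3.1, 2.97, 3.03 and 3.14 in memory resting cells, and 3.75, 3.52, 3.5 and 3.62 in naive stimulated and 3.43, 3.05, 2.96 and 3.24 in naive resting cells. Both genes separated stimulated from resting arrays. The Eif1b calls were lost under quantile scaling and in the authors' deposited table.

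All 3 measured subunits of eIF2 rose, the complex that brings the initiator tRNA. Eif2s1 encodes the alpha subunit, whose phosphorylation by stress kinases holds translation back. It rose by 2.44 ± 0.13 in memory cells and 2.34 ± 0.13 in naive cells, 5.43-fold and 5.06-fold (adjusted p = 3.4e-10 and 5.6e-10). Its values were 5.61, 5.66, 5.49 and 5.74 in memory stimulated and 3.04, 3.13, 3.14 and 3.41 in memory resting cells, and 5.65, 5.65, 5.71 and 5.7 in naive stimulated and 2.96, 3.35, 3.37 and 3.68 in naive resting cells, with a wide gap between stimulated and resting. The beta subunit gene Eif2s2 rose by 2.18 ± 0.15 and 2.16 ± 0.15 in memory and naive cells.

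The gamma subunit is encoded by Eif2s3x on the X chromosome and by Eif2s3y on the Y chromosome, which female mice lack. Eif2s3x stood at 5.08, 5.02, 5.04 and 5.15 in memory stimulated and 3.93, 3.86, 4.0 and 3.96 in memory resting cells, and at 5.3, 5.05, 5.11 and 5.01 in naive stimulated and 3.78, 3.87, 3.88 and 4.09 in naive resting cells. That is a rise of 1.14 ± 0.10 in memory cells and 1.22 ± 0.10 in naive cells, smaller than those of the alpha and beta subunit genes as a difference on each gene's own probe. Eif2a, a separate factor that can also deliver initiator tRNA, rose by 0.80 ± 0.12 and 0.71 ± 0.12.

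The exchange factor eIF2B is a complex of 5 kinds of subunit. All 5 genes rose in memory cells, by 0.57 to 2.26, and 3 of 5 in naive cells. Eif2b3, the gamma subunit gene, rose most, by 2.26 ± 0.18 and 2.09 ± 0.18, followed by Eif2b5, which encodes the catalytic epsilon subunit, by 1.45 ± 0.11 and 1.21 ± 0.11. Eif2b1 (alpha) rose by 1.15 ± 0.11 and 0.86 ± 0.11. In naive cells Eif2b2 (beta) and Eif2b4 (delta) were not called, with changes of 0.25 ± 0.11 (adjusted p = 0.056) and 0.28 ± 0.12 (adjusted p = 0.051), while in memory cells they rose by 0.57 ± 0.11 and 0.65 ± 0.12. Under quantile scaling the changes of Eif2b2 were -0.07 in memory and -0.24 in naive cells. The naive change was called lower there (adjusted p = 0.022) and in the authors' table (-0.27, adjusted p = 0.0067). The memory calls of Eif2b2 and Eif2b4 were lost under quantile scaling and in the authors' table. Eif2b4 had 0.13 (adjusted p = 0.23) and 0.08 (adjusted p = 0.43) in these.

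The eIF3 scaffold was split. Of 12 subunit genes, 11 rose in memory cells and 9 in naive cells, and the changes ran from -0.18 to 2.48 in memory and from -0.41 to 2.40 in naive cells. Eif3j1, a loosely bound subunit at the decoding site, changed most, by 2.48 ± 0.11 and 2.4 ± 0.11. All 3 Eif3j1 probes were placed by the files on chromosome 18, where the RefSeq annotation has its paralogue Eif3j2, and not on chromosome 2 where it has Eif3j1, so the copy measured is uncertain. The subunit genes Eif3b (2.38 ± 0.13 and 1.97 ± 0.13), Eif3g (1.92 ± 0.12 and 1.56 ± 0.12), Eif3c (1.91 ± 0.14 and 1.37 ± 0.14), Eif3a (1.63 ± 0.18 and 1.68 ± 0.18) and Eif3d (1.33 ± 0.13 and 1.2 ± 0.13) rose in memory cells (first value) and naive cells (second value). So did Eif3l, by 1.1 ± 0.11 and 1.07 ± 0.11.

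Eif3i rose by 1.11 ± 0.14 in memory and 0.68 ± 0.14 in naive cells. Eif3k rose by 0.67 ± 0.13 in memory cells and had a change of 0.24 ± 0.13 in naive cells (adjusted p = 0.11). The Eif3k memory call was lost under quantile scaling (0.27, adjusted p = 0.093) and in the authors' table (0.29, adjusted p = 0.066). Eif3h had changes of 0.25 ± 0.10 (adjusted p = 0.031) in memory and 0.12 ± 0.10 (adjusted p = 0.29) in naive cells, and Eif3e rose by 0.43 ± 0.16 and 0.55 ± 0.16. Eif3h and Eif3e changed sign in both cell types under quantile scaling. Eif3h was called lower there in memory (-0.36, adjusted p = 0.00057) and naive cells (-0.41, adjusted p = 0.00021). In the authors' table both genes were called lower in both cell types. The adjusted p there was 7.5e-05 and 7.6e-05 for Eif3h and 0.011 and 0.037 for Eif3e, in memory and naive cells. The memory calls of both genes depended on single arrays. The Eif3e memory call was lost without memory stimulated replicate 3 or 4 or memory resting replicate 1, 2 or 3, and that of Eif3h without any of these or memory stimulated replicate 2. Eif3f was the 1 subunit gene that fell in naive cells, by 0.41 ± 0.14 (adjusted p = 0.014). It stood at 5.06, 4.98, 5.27 and 5.21 in memory stimulated and 5.26, 5.16, 5.34 and 5.47 in memory resting cells, and at 4.91, 4.65, 4.7 and 4.88 in naive stimulated and 5.62, 5.01, 5.07 and 5.1 in naive resting cells. Its memory groups overlapped and the naive groups did not. The memory change of Eif3f was called lower under quantile scaling (-0.84, adjusted p = 2.6e-05) and in the authors' table (-0.89, adjusted p = 8.3e-06). Naive resting replicate 1 stood above the other 3 arrays of its group.

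The cap-binding complex eIF4F consists of the cap-binding protein eIF4E, the scaffold eIF4G and the RNA helicase eIF4A, which eIF4B and eIF4H assist. Eif4e rose in both cell types, and the difference of the responses was 0.07 ± 0.13 (95% interval -0.20 to 0.34). Memory stimulated cells had 5.0, 5.18, 5.19 and 5.11, against 2.35, 2.32, 2.32 and 2.46 in memory resting cells, and naive stimulated cells had 5.21, 5.11, 5.08 and 5.0, against 2.32, 2.43, 2.41 and 2.49 in naive resting cells. The 8 stimulated arrays lay close together and far above every resting array. The rises were 2.76 ± 0.09 in memory cells (6.76-fold, adjusted p = 1.8e-12) and 2.69 ± 0.09 in naive cells (6.44-fold, adjusted p = 2.2e-12).

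The paralogues of Eif4e moved in opposite directions. Eif4e2, whose protein binds caps and represses translation, rose by 1.12 ± 0.11 and 1.04 ± 0.11 in memory and naive cells on its brightest probe. Its values there were 3.59, 3.67, 3.65 and 3.68 in memory stimulated and 2.53, 2.32, 2.43 and 2.82 in memory resting cells, and 3.48, 3.53, 3.48 and 3.48 in naive stimulated and 2.47, 2.3, 2.37 and 2.66 in naive resting cells. Eif4e3, an atypical cap binder, was lower after stimulation. It had -2.87, -2.97, -3.98 and -3.08 in memory stimulated and -1.34, -1.36, -1.51 and -3.22 in memory resting cells, and -2.2, -2.09, -2.33 and -1.88 in naive stimulated and -0.58, -0.31, -0.43 and -2.39 in naive resting cells. In each resting group replicate 4 stood far below the other 3 arrays, within the range of the stimulated arrays in memory cells and below it in naive cells. Eif4e3 fell by 1.37 ± 0.46 in memory cells (adjusted p = 0.016) and by 1.2 ± 0.46 in naive cells (adjusted p = 0.031). Without naive resting replicate 4 the naive change was -1.68, and without memory resting replicate 4 the memory change was -1.82. The naive Eif4e3 call was lost without naive stimulated replicate 1, 2 or 3 or naive resting replicate 1, 2 or 3, and the memory call without memory stimulated replicate 3.

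The helicase genes differed from each other. Eif4a1 rose by 2.51 ± 0.16 in memory cells (5.68-fold, adjusted p = 2.2e-09) and by 1.7 ± 0.16 in naive cells (3.24-fold, adjusted p = 1.9e-07). Its closest relative Eif4a2 was not called in either, with changes of 0.21 ± 0.11 in memory cells (95% interval -0.02 to 0.45) and -0.02 ± 0.11 in naive cells (95% interval -0.25 to 0.22). Eif4a2 values were 6.15, 6.15, 6.31 and 6.26 in memory stimulated and 5.94, 5.9, 5.92 and 6.27 in memory resting cells, and 6.24, 6.31, 6.28 and 6.4 in naive stimulated and 6.2, 6.38, 6.21 and 6.52 in naive resting cells, and stimulated and resting arrays overlapped in both. Under quantile scaling Eif4a2 was called lower in both, with changes of -0.44 in memory and -0.59 in naive cells. Another family member, Eif4a3 of the exon junction complex, stood under another name in the files and rose by 1.27 ± 0.11 and 1.14 ± 0.11. Eif4a3 values were 3.41, 3.32, 3.32 and 3.48 in memory stimulated and 1.97, 2.09, 2.12 and 2.27 in memory resting cells, and 3.61, 3.42, 3.57 and 3.6 in naive stimulated and 2.2, 2.37, 2.36 and 2.7 in naive resting cells.

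Among the scaffold genes, Eif4g1 rose by 1.75 ± 0.13 in memory and 1.43 ± 0.13 in naive cells, and Eif4g2, which lacks the eIF4E binding part, rose by 1.26 ± 0.11 and 1.04 ± 0.11. Eif4g1 had 4.71, 4.48, 4.38 and 4.53 in memory stimulated and 2.79, 2.69, 2.89 and 2.74 in memory resting cells, and 4.65, 4.35, 4.42 and 3.97 in naive stimulated and 2.86, 2.84, 3.03 and 2.94 in naive resting cells. Eif4g2 had 5.26, 5.45, 5.48 and 5.46 in memory stimulated and 4.03, 4.09, 4.26 and 4.24 in memory resting cells, and 5.37, 5.45, 5.55 and 5.26 in naive stimulated and 4.18, 4.43, 4.48 and 4.38 in naive resting cells. Both genes separated the groups without overlap. Eif4g3 instead fell by 0.36 ± 0.12 in naive cells (adjusted p = 0.017) and had a change of 0.22 ± 0.12 in memory cells (adjusted p = 0.13). In memory cells Eif4g3 was called lower under quantile scaling (-0.41, adjusted p = 0.0031) and in the authors' table (-0.43, adjusted p = 0.0017). The naive Eif4g3 call was lost without naive resting replicate 4. Values of Eif4g3 were 4.99, 4.91, 5.17 and 4.86 in memory stimulated and 4.49, 4.87, 4.78 and 4.93 in memory resting cells, and 4.71, 4.65, 4.54 and 4.65 in naive stimulated and 4.79, 4.98, 5.0 and 5.22 in naive resting cells. The helicase cofactor gene Eif4b rose by 1.43 ± 0.11 in memory and 0.62 ± 0.11 in naive cells. Its naive call was lost under quantile scaling (0.18, adjusted p = 0.062) and in the authors' table (0.13, adjusted p = 0.15).

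The inhibitors of eIF4E moved in different directions. Eif4ebp1, which encodes the best known target of mTORC1 among them, rose by 3.4 ± 0.31 in memory cells (10.6-fold, adjusted p = 9.3e-08) and by 2.51 ± 0.31 in naive cells (5.69-fold, adjusted p = 2.9e-06). Its values were 4.44, 5.36, 5.54 and 4.77 in memory stimulated and 1.65, 1.55, 1.44 and 1.87 in memory resting cells, and 3.19, 4.68, 4.6 and 4.16 in naive stimulated and 2.19, 1.52, 1.38 and 1.5 in naive resting cells. The stimulated arrays spread over more than 1 unit in each cell type and still lay above all resting arrays. Eif4ebp3 fell by 0.33 ± 0.11 in memory cells (adjusted p = 0.012) and by 0.88 ± 0.11 in naive cells (adjusted p = 2.4e-06). It had 1.9, 1.96, 2.07 and 1.85 in memory stimulated and 2.15, 2.23, 2.4 and 2.33 in memory resting cells, and 1.72, 1.51, 1.65 and 1.36 in naive stimulated and 2.54, 2.31, 2.49 and 2.43 in naive resting cells, without overlap of stimulated and resting.

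Eif4ebp2 was not called in either cell type, and its resting arrays spread widely. It stood at 2.71, 2.75, 1.25 and 2.46 in memory stimulated and 3.65, 3.78, 3.68 and 2.02 in memory resting cells, and at 2.67, 2.51, 2.39 and 2.25 in naive stimulated and 2.63, 3.95, 3.88 and 2.05 in naive resting cells. Its changes were -0.99 ± 0.47 in memory cells (adjusted p = 0.069) and -0.67 ± 0.47 in naive cells (adjusted p = 0.21). Without memory resting replicate 4 the memory change was -1.41 and was called (adjusted p = 0.0093). It was also called lower under quantile scaling (-1.4, adjusted p = 0.024), with normexp background correction (-1.0, adjusted p = 0.0498) and in the authors' table (-1.46, adjusted p = 0.015). Eif4enif1, the transporter that takes eIF4E into the nucleus, rose by 0.43 ± 0.12 and 0.42 ± 0.12 in memory and naive cells. The naive Eif4enif1 call was lost in the authors' table (0.19, adjusted p = 0.10).

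**Figure D2:**
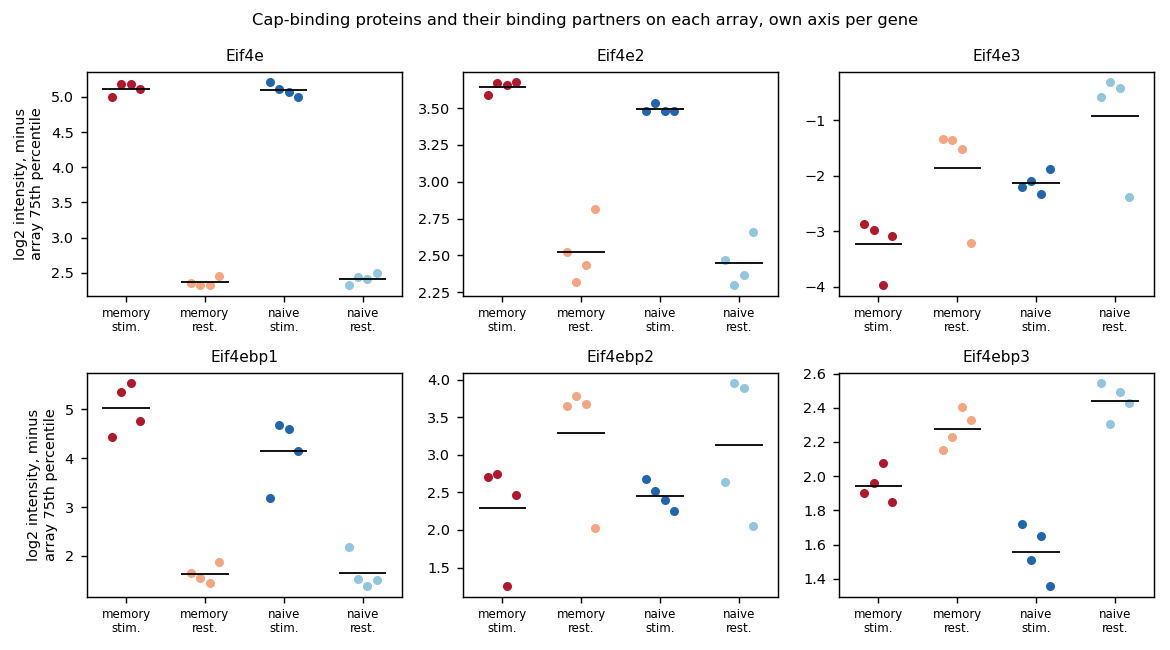
Log2 intensity minus the array's 75th percentile (vertical axis, its own range for each gene) on the 4 arrays of each group for Eif4e, its paralogues Eif4e2 and Eif4e3, and its inhibitors Eif4ebp1, Eif4ebp2 and Eif4ebp3. Points are arrays and lines are group means. Eif4e and Eif4ebp1 are high in both stimulated groups, Eif4ebp3 is low in them, and replicate 4 of both resting groups lies low for Eif4e3 and Eif4ebp2.

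Subunit joining factors rose. Eif5, which triggers GTP hydrolysis by eIF2, rose by 1.45 ± 0.22 in memory and 1.57 ± 0.22 in naive cells, and Eif5b, the GTPase of subunit joining, by 1.9 ± 0.16 and 1.39 ± 0.16. Eif5a encodes the hypusine-containing factor that helps ribosomes through difficult stretches. It had 7.12, 7.18, 7.22 and 6.96 in memory stimulated and 4.28, 4.11, 4.27 and 4.64 in memory resting cells, and 7.12, 7.03, 7.0 and 6.61 in naive stimulated and 4.69, 4.4, 4.39 and 4.53 in naive resting cells. No stimulated array fell near a resting one, and the rises were 2.8 ± 0.14 (6.95-fold, adjusted p = 9.8e-11) in memory and 2.44 ± 0.14 (5.41-fold, adjusted p = 4.6e-10) in naive cells. Its relative Eif5a2 was not called, with -0.44, -0.64, -0.42 and -0.88 in memory stimulated and -0.51, -0.71, -0.62 and -0.20 in memory resting cells, and -0.14, -0.32, -0.39 and -0.58 in naive stimulated and -0.77, -0.97, -0.89 and -0.31 in naive resting cells. The changes of Eif5a2 were -0.08 ± 0.17 in memory (95% interval -0.44 to 0.27) and 0.38 ± 0.17 in naive cells (adjusted p = 0.054). In naive cells Eif5a2 was called higher under quantile scaling (0.40, adjusted p = 0.045) and with normexp (0.42, adjusted p = 0.014). So it was in the authors' table (0.42, adjusted p = 0.024) and with the mean of all its probes (0.33, adjusted p = 0.026).

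The promoter letters of some members that rose in both cell types, and of some that were called higher in neither, are shown because genes of growth and translation often carry an E-box (CACGTG, in capitals here, the same on both strands), the site bound by Myc and related factors. Of the 55 genes, 43 had an entry among RefSeq promoters of build GRCm38.p6, and the 250 bases before each start were searched. The windows of Eif4e, Eif5a, Eif4a1 and Eif4g1, which rose in both cell types, are followed by those of Eef2 and Eif3f, which were not called higher in either.
Eif4e (chr3:138527028-138527057, plus strand): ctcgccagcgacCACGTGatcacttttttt
Eif4e (chr3:138527192-138527221, plus strand): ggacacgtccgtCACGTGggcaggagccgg
Eif5a (chr11:69921443-69921472, minus strand): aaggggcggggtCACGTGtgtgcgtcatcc
Eif4a1 (chr11:69672567-69672652, minus strand): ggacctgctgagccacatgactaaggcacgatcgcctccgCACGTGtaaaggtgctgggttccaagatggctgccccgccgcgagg
Eif4g1 (chr16:20672633-20672718, plus strand): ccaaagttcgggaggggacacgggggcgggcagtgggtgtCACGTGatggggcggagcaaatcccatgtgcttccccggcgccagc
Eef2 (chr10:81176548-81176630, plus strand): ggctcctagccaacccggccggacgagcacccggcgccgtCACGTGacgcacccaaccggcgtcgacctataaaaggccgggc
Eif3f (chr7:108934307-108934392, plus strand): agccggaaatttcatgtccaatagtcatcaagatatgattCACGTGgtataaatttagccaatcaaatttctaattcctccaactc

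The E-box was found for 5 of 26 members with an entry that rose in both cell types (19.2%: Eif4e, Eif5a, Eif4a1, Eif4g1 and Eif1b) and for 5 of the 15 other tested members (33.3%: Eef2, Eif3f, Eif3k, Eef2k and Eif5a2). Over all 27025 genes with an entry the share was 6.86%, and over all 32851 promoter entries 6.02%. These letters were thus no more frequent among the members that rose in both cell types than among the other tested members, and a match does not show that a factor binds there. Eif4e and Eif5a have another RefSeq start farther upstream, so 30 bases around each box are shown for them. The Eif5a box shown also lies before another of its starts, and a further Eif5a box, before a start farther downstream, is not shown. In Eif4e the boxes begin 228 and 64 bases before the start, in Eif5a 74, in Eif4a1 189, in Eif4g1 54, in Eef2 43 and in Eif3f 68.

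Eef1a1, which encodes the main carrier of aminoacyl-tRNA, was not called. It had 8.09, 8.15, 8.05 and 8.45 in memory stimulated and 7.83, 7.84, 7.88 and 8.17 in memory resting cells, and 8.01, 8.3, 8.26 and 8.43 in naive stimulated and 7.72, 8.08, 7.99 and 8.4 in naive resting cells, and the groups overlapped in both cell types. The changes were 0.26 ± 0.15 in memory (95% interval -0.06 to 0.58) and 0.20 ± 0.15 in naive cells (95% interval -0.11 to 0.52). Eef2, the translocase gene, had a change of -0.01 ± 0.14 in memory cells (95% interval -0.30 to 0.28) and fell by 0.34 ± 0.14 in naive cells (adjusted p = 0.036). Under quantile scaling Eef2 fell by 0.65 in memory and 0.90 in naive cells. The naive Eef2 call was lost with normexp (-0.18, adjusted p = 0.23) and with the mean of all probes (-0.31, adjusted p = 0.11). It was also lost in 4 of the 16 fits that left out 1 array, with naive resting replicate 1 or with naive stimulated replicate 2, 3 or 4 left out.

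Among the eEF1 exchange subunits, Eef1d (delta) rose by 1.16 ± 0.12 and 0.88 ± 0.12 in memory and naive cells, and Eef1g (gamma) by 0.58 ± 0.12 and 0.54 ± 0.12. Eef1b2 (beta) rose by 0.42 ± 0.13 in memory cells and had a change of 0.28 ± 0.13 in naive cells (adjusted p = 0.062). The rises of Eef1g were not called under quantile scaling, and in the authors' table its memory rise was not called either. The Eef1b2 memory call was lost under quantile scaling (0.01, adjusted p = 0.94) and in the authors' table (-0.09, adjusted p = 0.38). The kinase gene Eef2k was not called on its brightest probe, with changes of -0.06 ± 0.30 and 0.28 ± 0.30. With the mean of all its probes Eef2k was called lower in memory cells (-0.85, adjusted p = 0.0082), and the difference of responses was called (-1.16, adjusted p = 0.037).

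Eef1e1, the synthetase complex gene, changed most of all members. It stood at 6.06, 6.08, 6.03 and 5.98 in memory stimulated and 1.61, 1.76, 1.78 and 2.04 in memory resting cells, and at 5.98, 5.94, 5.97 and 5.98 in naive stimulated and 1.6, 2.22, 2.15 and 2.34 in naive resting cells. The 8 stimulated arrays lay close together, far above all 8 resting arrays. The rise was 4.24 ± 0.14 in memory cells (18.9-fold, adjusted p = 2.1e-12) and 3.89 ± 0.14 in naive cells (14.8-fold, adjusted p = 4.9e-12), and under quantile scaling 3.79 and 3.49. Its probe covers chr13:38065102-38065161 of mouse build mm7, per the files.

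**Figure D3:**
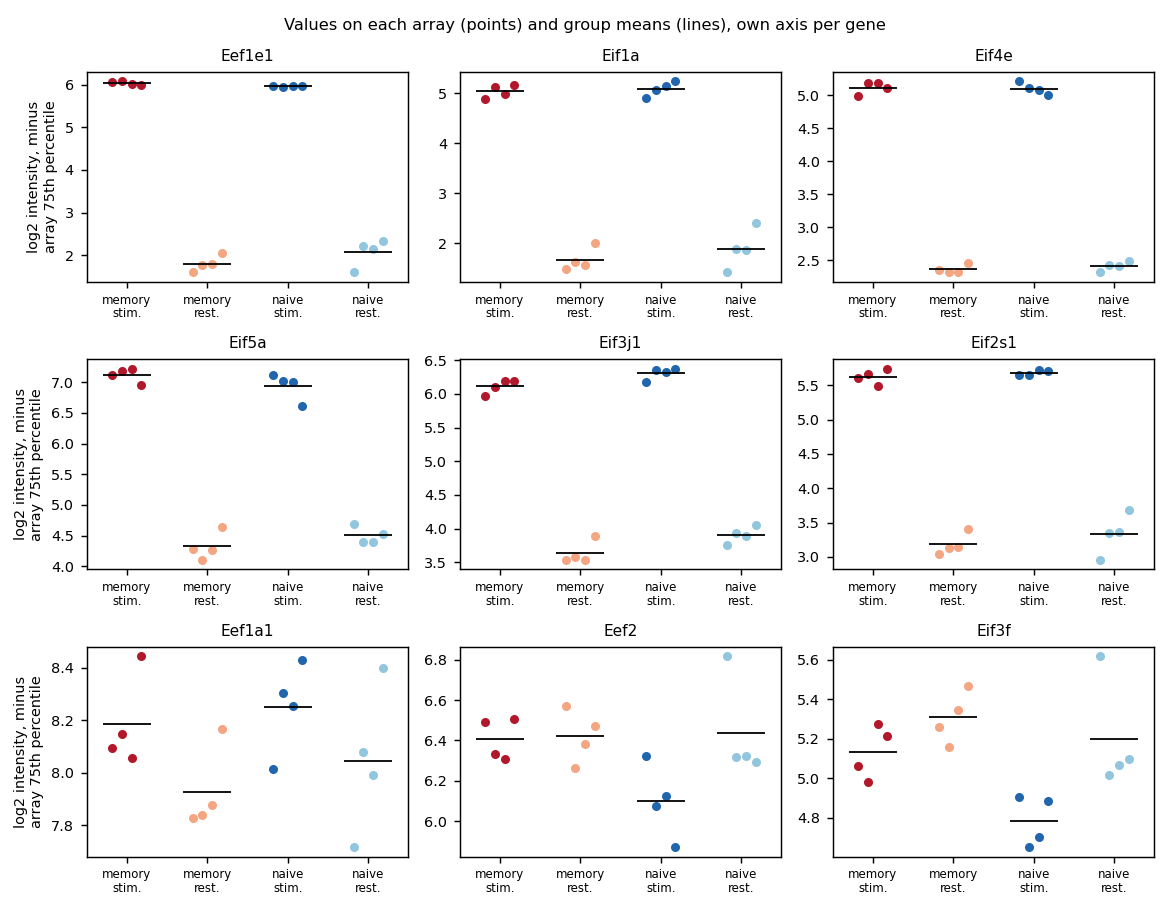
Log2 intensity minus the array's 75th percentile (vertical axis, its own range for each gene) on the 4 arrays of each group for 6 genes with large rises (Eef1e1, Eif1a, Eif4e, Eif5a, Eif3j1 and Eif2s1) and 3 with small or no rises (Eef1a1, Eef2 and Eif3f). Points are arrays and lines are group means. For the 6 genes every stimulated array lies above every resting array, and for Eef1a1 stimulated and resting arrays overlap.

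The Argonaute genes, which the rule takes through their older names, did not move as a group. Ago2, the one with slicing activity, rose by 1.38 ± 0.23 in memory and 1.55 ± 0.23 in naive cells on its brightest member probe. Ago3 fell by 0.39 ± 0.12 in naive cells (adjusted p = 0.0082) and Ago4 by 0.92 ± 0.17 in memory cells (adjusted p = 0.00016). Ago1 was not called in either. Ago3 had -0.37, -0.14, 0.02 and -0.18 in memory stimulated and -0.22, -0.16, -0.10 and 0.08 in memory resting cells, and -0.16, -0.02, -0.15 and -0.04 in naive stimulated and 0.09, 0.27, 0.28 and 0.55 in naive resting cells, so stimulated and resting arrays were apart in naive cells only. With the mean of all probes of Ago3 the naive change was 0.02.

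Few of these genes were called different between memory and naive cells. At rest no member was higher in memory than in naive cells and 3 were lower, where 13.4% of all genes tested were higher and 7.00% lower. After stimulation 4 were higher and 1 lower, where 9.58% were higher and 13.4% lower. The 95% interval of the difference lay within 1 unit either way for 50 of 53 genes at rest and 47 after stimulation, so 2-fold differences were outside it for most. For Eif4e the difference was -0.05 ± 0.09 at rest (95% interval -0.24 to 0.14) and 0.02 ± 0.09 after stimulation (95% interval -0.17 to 0.21). Eef1a1 had -0.12 ± 0.15 (95% interval -0.44 to 0.20) and -0.07 ± 0.15 (95% interval -0.38 to 0.25).

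Eif5b was lower in memory than in naive cells at rest by 0.58 ± 0.16 (adjusted p = 0.022). Its values were 4.78, 5.06, 4.94 and 5.39 in memory resting and 5.29, 5.67, 5.57 and 5.97 in naive resting cells, which overlapped, against 6.7, 6.9, 7.06 and 7.09 in memory stimulated and 6.78, 7.03, 7.03 and 7.22 in naive stimulated cells, where the difference was -0.08 ± 0.16. Ago3 was lower in memory cells at rest by 0.40 ± 0.12 (adjusted p = 0.030), with no overlap of the resting groups. With the mean of all probes of a gene the Ago3 call was lost (-0.09, adjusted p = 0.63), and so was the Eif5b call (-0.40, adjusted p = 0.086). The Eif5b call was lost without naive resting replicate 2 or 4 or memory resting replicate 1 or 3, and the Ago3 call without naive resting replicate 2, 3 or 4 or memory resting replicate 1, 2 or 3. Leaving out memory resting replicate 4 gave 8 called genes and leaving out naive resting replicate 1 gave 6, whereas leaving out naive resting replicate 2 or memory resting replicate 1 or 3 gave 1. In a fit of the resting arrays alone limma called none, with 7 genes at an unadjusted p under 0.05.

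Eif4b changed places between the comparisons. At rest it had 2.96, 3.08, 3.07 and 3.35 in memory and 3.6, 3.46, 3.47 and 3.72 in naive cells, a difference of -0.45 ± 0.11 (adjusted p = 0.0076). After stimulation it had 4.43, 4.5, 4.67 and 4.57 in memory and 4.2, 4.19, 4.19 and 4.14 in naive cells, a difference of 0.36 ± 0.11 (adjusted p = 0.025). Memory arrays lay below all naive arrays at rest and above all of them after stimulation. The Eif4b call after stimulation was lost with the mean of all its probes (0.21, adjusted p = 0.12) and without naive stimulated replicate 2, 3 or 4 or memory stimulated replicate 3, and that of Eif4ebp3 without naive stimulated replicate 2 or 4 or memory stimulated replicate 3. The other genes higher in memory cells after stimulation were Eif3i (0.43 ± 0.14, adjusted p = 0.041), Eif4ebp3 (0.39 ± 0.11, adjusted p = 0.018) and Eif3k (0.38 ± 0.13, adjusted p = 0.045).

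Eif3i had 3.55, 3.4, 3.48 and 3.37 in memory stimulated and 3.24, 2.93, 2.93 and 2.99 in naive stimulated cells, and 2.45, 2.15, 2.36 and 2.41 in memory resting and 2.63, 2.07, 2.1 and 2.59 in naive resting cells. Eif3k had 3.26, 3.01, 3.09 and 3.05 in memory stimulated and 2.95, 2.6, 2.6 and 2.73 in naive stimulated cells, and 2.63, 2.33, 2.35 and 2.43 in memory resting and 2.8, 2.35, 2.33 and 2.45 in naive resting cells. Stimulated memory arrays of both genes lay above all stimulated naive arrays, and the resting groups overlapped. Both calls were lost under quantile scaling, in the authors' table and without any 1 of naive stimulated replicates 2, 3 and 4, among others. Counts of called genes after stimulation ran from 1 (without naive stimulated replicate 4 or memory stimulated replicate 3) to 8 (without naive resting replicate 1) when single arrays were left out. They were 2 without naive stimulated replicate 2, and 3 without naive stimulated replicate 3, memory stimulated replicate 2 or memory resting replicate 3.

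Ago4 was lower in stimulated memory than in stimulated naive cells by 0.70 ± 0.17 (adjusted p = 0.0084). The call was lost with normexp (-0.37, adjusted p = 0.062) and with the mean of all Ago4 probes (-0.56, adjusted p = 0.17). On its brightest probe Ago4 stood at -3.51, -3.16, -2.96 and -3.33 in memory stimulated and -2.77, -2.36, -2.69 and -2.33 in naive stimulated cells, without overlap, and at -2.25, -2.5, -2.52 and -2.0 in memory resting and -2.72, -2.94, -2.83 and -2.36 in naive resting cells, which overlapped. Without overlap of the groups, 10 members were higher and 4 lower in memory cells after stimulation, where 11.6% and 16.1% of all genes were, and none was higher and 2 lower at rest, where 13.2% and 9.43% were.

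**Figure D4:**
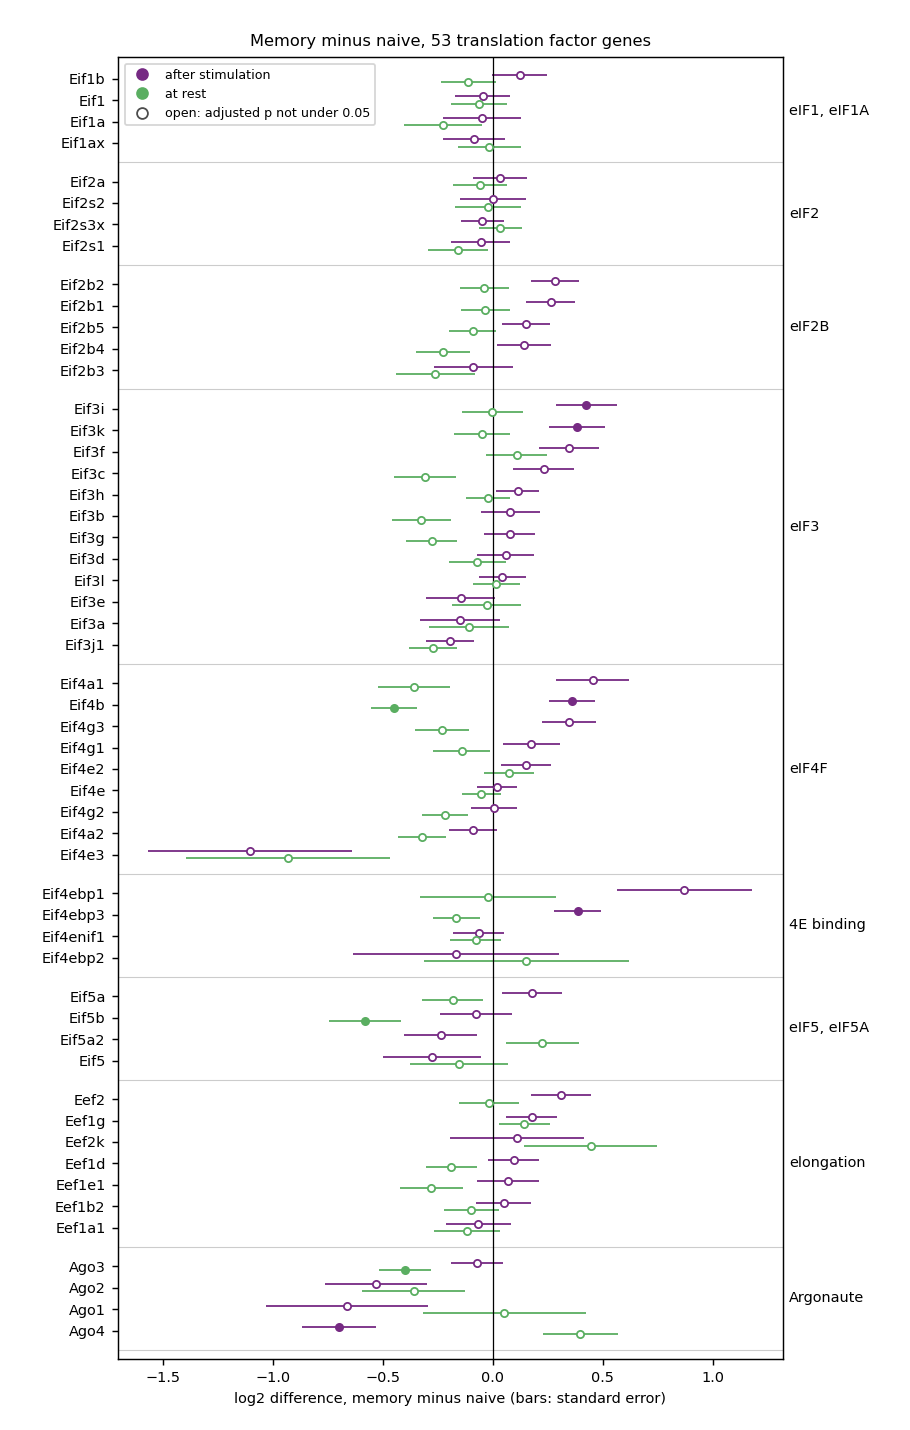
Difference of memory minus naive cells for the 53 tested genes, by role, as a log2 difference (horizontal axis), after stimulation (purple, upper point of a pair) and at rest (green, lower point). Bars are standard errors and open points were not called. Filled points are few, and Eif4b has a filled point on each side of 0.

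The response itself was compared between cell types, as the memory response minus the naive response. The signed difference was called above 0 for 4 members and below 0 for 1, where 5.21% of all genes were higher and 13.3% lower. Eif4b rose by 1.43 in memory against 0.62 in naive cells, a difference of 0.81 ± 0.15 (adjusted p = 0.0017). Eif4a1 had a difference of 0.81 ± 0.23 (adjusted p = 0.027), Eif4g3, which was called lower in naive cells and not called in memory cells, of 0.58 ± 0.17 (adjusted p = 0.035) and Eif4ebp3, which fell less in memory cells, of 0.55 ± 0.15 (adjusted p = 0.021). These 4 genes are 7.55% of the tested members, beside 5.21% of all genes. Of the 9 tested genes of the eIF4F role, 6 were not called, so the calls do not mark eIF4F as a whole. The difference for Ago4, which fell in memory cells and was not called in naive cells, was -1.1 ± 0.24 (adjusted p = 0.0054). Quantile scaling left 3 called genes, Eif4b, Eif4a1 and Ago4. The Eif4ebp3 call was also lost with normexp and in the authors' table, and the Eif4g3 call with the mean of all probes. Leaving out single arrays gave 3 to 8, with 8 without memory resting replicate 4 and 3 without naive stimulated replicate 4 or memory resting replicate 1 or 3. The Eif4a1 call was lost without naive stimulated replicate 4 or memory resting replicate 1, 2 or 3, and the Eif4g3 call in 10 of these 16 fits.

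For Eif4a1 the result depended on the probe. On its brightest probe (chr11:69748672-69748731, mm7) Eif4a1 had 6.85, 6.9, 7.43 and 6.64 in memory stimulated and 4.33, 4.27, 4.34 and 4.86 in memory resting cells, and 6.56, 6.61, 6.51 and 6.32 in naive stimulated and 4.82, 4.78, 4.72 and 4.9 in naive resting cells. A second Eif4a1 probe close by (chr11:69748517-69748576) had 3.17, 3.3, 3.49 and 3.26 in memory stimulated and 1.8, 1.8, 1.85 and 2.76 in memory resting cells, and 4.24, 4.47, 4.39 and 4.29 in naive stimulated and 0.88, 0.72, 0.69 and 1.14 in naive resting cells. There memory cells stood above naive cells at rest and below them after stimulation, and both differences were called. On the brightest probe the means stood the other way round, with differences of -0.36 ± 0.16 at rest and 0.45 ± 0.16 after stimulation that were not called. The second Eif4a1 probe gave a difference of responses of -2.24 ± 0.27 (adjusted p = 3.9e-05), with rises of 1.25 ± 0.19 in memory and 3.49 ± 0.19 in naive cells. The other tested Eif4a1 probe (chr11:69750105-69750259, a span of 155 bases) rose by 2.37 ± 0.25 and 2.08 ± 0.25, with a difference of 0.29 ± 0.36 that was not called. All 3 probes show Eif4a1 higher after stimulation in both cell types. They do not give a common answer on the difference between cell types.

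**Figure D5:**
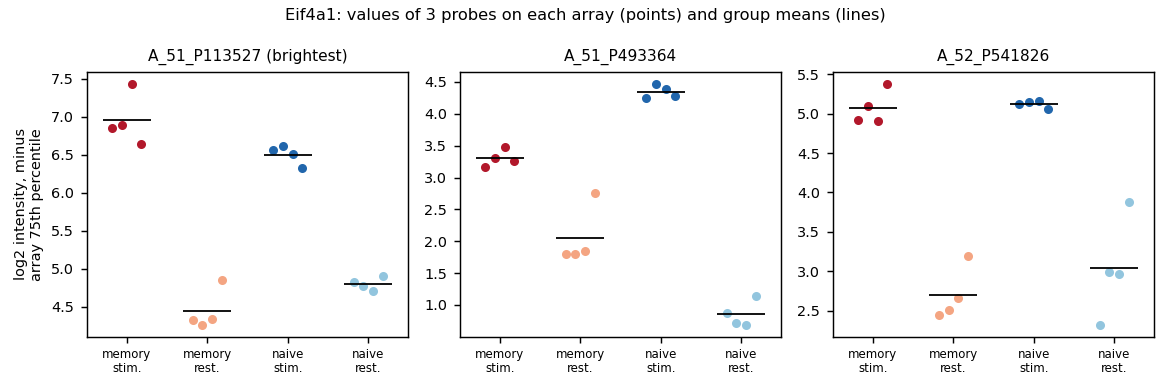
Log2 intensity minus the array's 75th percentile (vertical axis, its own range for each probe) on the 4 arrays of each group for the 3 tested Eif4a1 probes, the brightest at the left. Points are arrays and lines are group means. All 3 are higher in stimulated cells, while the order of memory and naive cells differs between the first 2 probes.

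Most other genes had the same call, or none, on all of their probes. Of 39 genes with several tested probes, the calls of all probes were the same for 32 in the memory response and 31 in the naive response. The same held for 30 at rest, 26 after stimulation and 30 in the difference of responses. In these last 3 comparisons 110, 104 and 109 of 119 probes were not called, so the shared call was mostly no call. Opposite calls occurred for Eif4a1 in the difference of responses and for Eif4e2 in the naive response. Of 5 tested Eif4e2 probes, 3 rose in naive cells, the brightest by 1.04 ± 0.11 and others by 1.04 ± 0.10 and 0.32 ± 0.14, while the one at chr1:87140584-87140643 (mm7) fell by 0.30 ± 0.12 (adjusted p = 0.035). Over single probes, 87 of 119 rose and 8 fell in memory cells (33.4% and 37.2% of all probes). In naive cells 84 rose and 11 fell (38.9% and 30.4% of all probes). Between memory and naive cells, 7 probes were higher and 8 lower in memory cells after stimulation, and 2 higher and 7 lower at rest. The difference of responses was called above 0 for 5 probes and below 0 for 5. The shares of all probes were not counted for these last 3 comparisons.

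Other genes of the same machinery were counted from a list of genes that are no members. Of the 11 factors under other names, 9 rose and none fell in memory cells, and 9 rose and 2 fell in naive cells. Among them Eif6, which keeps the ribosomal subunits apart, rose by 1.8 ± 0.14 and 1.26 ± 0.14. Of 41 tested genes that act on the factors or beside them, 22 rose and 9 fell in memory cells, and 23 rose and 9 fell in naive cells. Among all genes tested, 31.3% were higher and 39.1% lower in memory cells, and 38.2% and 30.9% in naive cells. The 13 of the 41 genes that control eIF4E and mTORC1 were even, with 4 higher and 4 lower in each cell type. Larp1, a binder of mRNAs that begin with a pyrimidine run, rose by 2.55 ± 0.10 and 2.35 ± 0.10, and the release factor gene Etf1 by 2.78 ± 0.18 and 2.4 ± 0.18. Abce1, which splits ribosomes after termination, rose by 2.33 ± 0.11 and 1.84 ± 0.11, and Mcts2 by 0.63 ± 0.11 and 2.36 ± 0.11. Mtor, the kinase of mTORC1, rose by 1.54 ± 0.15 and 1.97 ± 0.15, and Ppp1r15a, a phosphatase subunit that reverses eIF2 phosphorylation, by 1.97 ± 0.15 and 1.62 ± 0.15. Chosen after their values were seen, both enzymes that make hypusine on eIF5A, Dhps (1.11 ± 0.10 and 1.19 ± 0.10) and Dohh (1.93 ± 0.13 and 1.51 ± 0.13), rose with Eif5a.

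Among the genes that fell, Eif2ak3 (PERK, an eIF2 kinase of the endoplasmic reticulum) fell by 2.72 ± 0.19 in memory and 2.57 ± 0.19 in naive cells, and Eif2ak2 (PKR) by 2.19 ± 0.28 and 1.78 ± 0.28. The other eIF2 kinase genes, also chosen after their values were seen, rose, Eif2ak1 by 0.42 ± 0.12 and 0.34 ± 0.12 and Eif2ak4 by 0.99 ± 0.16 and 0.47 ± 0.16. Pdcd4, an inhibitor of the eIF4A helicase, fell by 2.61 ± 0.23 and 2.0 ± 0.23, and the mitochondrial release factor gene Mtrf1 by 2.17 ± 0.20 and 2.64 ± 0.20. Eif4a1 and its inhibitor Pdcd4 thus moved in opposite directions in both cell types.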

How the data were processed

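Per the labels' protocols, total RNA of 16 samples was primed with oligo-dT, amplified with T7 polymerase and labelled with Cy3. Each sample was hybridised to a 1-colour array with probes of 60 bases. The deposited scanner files hold intensity values made with Agilent Feature Extraction 9.5.3.1, per the file headers. The processed intensity is background-subtracted within its array and not normalised between arrays, and probe positions are on mouse build mm7. A deposited table holds the authors' own intensity values for 32097 probes. The sources used here do not give its normalisation. Its values are linear with a median of 149 on each array, and each column correlated best with its own scanner file on 16 of 16 arrays (lowest r 0.975).

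Outlier spots (59 to 116 of 43379 on an array) were left out, spots of a probe were averaged, and the log2 of the deposited processed intensity was taken minus the array's 75th percentile. Probes entered the test if 3 or more of the 4 arrays of some group had them well above background. limma 3.58.1 in R 4.3.3 (lmFit and eBayes, 1 mean per group, all 16 arrays, two-sided, Benjamini-Hochberg over 27348 probes) gave 5 comparisons: the stimulated minus resting difference in each cell type, the memory minus naive difference at rest and after stimulation, and the difference of the 2 responses. Errors after ± are standard errors of the fit. On simulated data for the naive response (27348 probes) 8.96%, 56.7% and 92.4% of changes of 0.5, 1 and 2 log2 units were recovered, and 7.08% of calls were false. Only 67, 67 and 66 probes were changed at these sizes in the simulation. In the data 38.9% of probes were called higher and 30.4% lower in that response. The simulated shares therefore do not tell how many changes of these sizes the fit found in the data. The number of arrays limits the precision.

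Of 127 member probes, 101 were named through their accession and 14 through an older symbol in RefSeq, and 12 kept a matching symbol. Of 119 tested probes, 6 had a placement under another name than the chromosome of their gene. Among these the Eef1g probe was placed on 19_random, where the gene is on chromosome 19, so it is not on a different chromosome number. Members and gene lists were chosen with earlier results of these data known. Values on every array are given for the 5 largest called changes in each direction of the responses and of the memory minus naive differences, and for paralogue families. For genes that are no members they are given as changes for the 4 largest in each direction of a response. Other scalings, background corrections, filters, probe choices, fits and left-out arrays were tried. Replicate numbers come from the sample titles and equal the positions on a slide. Deviations of same-numbered arrays correlated at -0.26 to 0.61, with medians of 0.08 to 0.31. The labels do not say that a number marks a shared sort, so the numbers were not taken as pairs in the main fit.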

Additional observations from a re-analysis of the deposited data

Results flagged for a closer look

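In 9 of 108 groups of 4 arrays examined, 1 array stood apart from the other 3 by Dixon's test, which chance gives for about 1 in 20 groups. Memory resting replicate 4 accounts for 5 of the 9. On that array Eef1a1 stood at 8.165 (other arrays 7.83 to 7.876), Eif4a1 at 4.857 (4.269 to 4.339) and Eif4a2 at 6.268 (5.899 to 5.935), all above the rest. Eif4e3 at -3.215 (-1.512 to -1.34) and Eif4ebp2 at 2.025 (3.653 to 3.776) lay below the rest there. Eif4e3 also stood low on naive resting replicate 4, at -2.39 (-0.5802 to -0.3122). Eif3f was high on naive resting replicate 1, at 5.618 (5.014 to 5.099). Eif4e2 was high on naive stimulated replicate 2, at 3.532 (3.48 to 3.483), and Eif4g2 low on memory stimulated replicate 1, at 5.264 (5.451 to 5.478).

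The memory response differed from the naive response by the test of the difference itself for 5 genes. The differences were 0.8097 for Eif4a1, 0.8081 for Eif4b, 0.5754 for Eif4g3, 0.5522 for Eif4ebp3 and -1.098 for Ago4. For Eif4a1 a second probe gave a difference in the other direction.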

How the results depend on the processing

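Counts of members called higher on stimulation stayed within 1.5 times of those reported under every alternative run. Counts called lower were 10 in naive cells in the authors' table, and 9 (quantile scaling) and 10 (authors' table) in memory cells. Leaving out single arrays gave 38 to 41 higher and 2 to 5 lower in memory cells (5 without memory resting replicate 4), and 35 to 38 higher and 4 to 6 lower in naive cells. The 3 calls at rest became 6 in the authors' table and 0 with only the groups compared (limma, 7 genes at an unadjusted p under 0.05), and 1 to 8 with single arrays left out. The 5 calls after stimulation became 3 with no filter on dim probes and 8 with only the groups compared, and 1 to 8 with single arrays left out. The 5 differences of the responses became 3 under quantile scaling, and 3 to 8 with single arrays left out. With the replicate number as a block, 6 genes were called at rest and 8 in the difference of the responses, and 12 of 16 arrays correlated best with their own number, a hint from the data and not the design. Eef1a1 was then called in memory cells (0.26, adjusted p = 0.017).

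Changes that turned sign are listed only for genes called in the main fit or in the alternative, and others were not listed. In memory cells they were, with quantile scaling and in the authors' table, -0.067 and -0.12 for Eif2b2, -0.24 and -0.31 for Eif3e, and -0.36 and -0.40 for Eif3h. For Eif4a2 they were -0.44 and -0.53, for Eif4g3 -0.41 and -0.43, and for Eef1b2 -0.089 in the authors' table. In naive cells they were -0.24 and -0.27 for Eif2b2, -0.031 and -0.25 for Eif3e, and -0.41 and -0.40 for Eif3h. With the mean of all probes Ago3 had 0.025 in naive cells, and the difference of responses was -0.63 for Eif1 and -0.38 for Eif4a1. The cause was not tested. Of all genes called, the share higher was 65.6% at rest (49.0% with normexp, 50.4% in the authors' table) and 28.1% in the difference of responses (39.5% with quantile scaling, 45.3% with normexp, 45.4% in the authors' table). The median change of all genes in memory cells was -0.16, and 0.03 with normexp, whose parameters could not be estimated on 3 arrays and were set there to the median of the other 13, a choice made after seeing the data. A slide block could not be fitted, because each slide holds 1 group.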
